A study of Mus musculus with 4 samples.

Results

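IAPLTR1_Mm elements are intracisternal A-particle (IAP) proviruses of the mouse, named after the type of long terminal repeat (LTR) that flanks them. The members described here are the loci of the LTR tables whose repeat name is exactly IAPLTR1_Mm, which gave 682 of 6216 LTR loci listed in at least 1 of the 4 libraries. Their widths ran from 549 to 9162 bp, and they were set apart as 13 elements under 4000 bp, 341 of 4000 to 6500 bp and 328 over 6500 bp. RNA-seq libraries came from C57BL/6J mice, as WT and Lsh-/- adult tail-tip fibroblasts transformed with SV40, and as WT and Lsh-/- whole embryos at E13.5. Each of the 4 groups was 1 library, so no value below has a replicate check and no p-value is given. The labels call the control embryos WT, whereas the study's account of embryo collection names heterozygous and homozygous Lsh embryos. Lsh, encoded by Hells, is a helicase of the SNF2 family.

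An IAP provirus is a retrovirus-like element that moves within the genome by reverse transcription. Its 5′ LTR holds the promoter, its 3′ LTR the polyadenylation signal, and the interior encodes Gag, Pro and Pol but no functional Env in most copies. A tRNA bound just after the 5′ LTR primes DNA synthesis. In somatic cells IAP elements are silenced by DNA methylation and repressive chromatin, and Lsh is needed for normal methylation of repeats. Many IAP copies are internally deleted. A long-known class, IΔ1, lacks a stretch across gag and pol and carries a fused open reading frame.

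The sequences of 676 members, all but 6 on an unplaced part of chromosome Y, could be read from the genome of the build of the files, NCBIM37 (mm9). A pair of LTRs was found in 670 of them, with a length of 335 to 514 bp and a median of 366.5 bp. In 545 of these pairs, 81.3%, the 5′ and 3′ LTR were identical. The elements began with TG in 671 cases, ended with CA in 646, and 626 were flanked by identical runs of 6 bases, the duplication that integration leaves. The LTRs of a provirus are identical when it inserts and diverge afterwards.

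The 5′ LTR of the member with the most counts in Lsh-/- fibroblasts is shown because it holds the regulatory letters to which the results return. It is the element at chr3:73537106-73542360 on the plus strand, and its first 300 bases, chr3:73537106-73537405, are given 5′ to 3′. Capitals mark, in order, AAGATGG (the core of a YY1 site), TGACGTCA (the palindromic cAMP response element, or CRE, bound by CREB and ATF proteins), CCAAT (the box bound by NF-Y) and AATAAA (the polyadenylation signal).
IAPLTR1_Mm at chr3:73537106: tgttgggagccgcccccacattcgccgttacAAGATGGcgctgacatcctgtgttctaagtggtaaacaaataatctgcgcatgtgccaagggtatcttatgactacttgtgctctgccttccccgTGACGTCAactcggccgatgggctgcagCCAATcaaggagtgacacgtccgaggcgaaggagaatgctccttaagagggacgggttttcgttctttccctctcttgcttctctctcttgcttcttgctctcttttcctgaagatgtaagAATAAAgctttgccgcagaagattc
Read on both strands, AAGATGG and CCAAT each occurred in 668 of the 670 5′ LTRs and AATAAA in 669. Of 32851 RefSeq promoters (GRCm38.p6, 250 bases before to 50 after the start), 6.34%, 37.4% and 19.6% held these letters. TATAA occurred in 8.66% of the LTRs and 24.9% of the promoters.

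Of the strings in capitals above, the CRE octamer was the one whose presence differed among many members. TATAA, held by few of the LTRs, differed as well, and counts were not split by it. TGACGTCA was present in 540 of 670 5′ LTRs (80.6%), mostly at base 126 or 127 of the LTR, and in 1.79% of RefSeq promoters. In 118 further members (17.6%) the 9 bases TGAACGTCA stood at that place, a string found in 0.0670% of promoters. A single member had TGATGTCA, which is C4T of the octamer with positions counted from its first base, and 11 had none of these forms. Windows of 60 bases are shown for members with each form that are described below, with the form in capitals.
chr3:73537206-73537265, plus strand: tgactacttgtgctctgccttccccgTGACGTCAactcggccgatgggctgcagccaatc
chr8:66225190-66225249, minus strand: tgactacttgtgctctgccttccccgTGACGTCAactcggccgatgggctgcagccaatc
chr15:72918224-72918283, minus strand: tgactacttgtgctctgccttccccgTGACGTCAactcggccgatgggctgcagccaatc
chr12:109322472-109322531, minus strand: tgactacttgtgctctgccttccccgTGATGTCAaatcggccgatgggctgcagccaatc
chr11:105894715-105894774, minus strand: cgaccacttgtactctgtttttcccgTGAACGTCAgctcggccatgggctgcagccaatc
chr4:78158165-78158224, plus strand: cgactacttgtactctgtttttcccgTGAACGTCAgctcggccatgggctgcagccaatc
The first 3 windows were the same in every base. The windows with TGAACGTCA differed from them at further bases around it.

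Directly after the 5′ LTR, 483 members had the same 24 bases and 76 had a second form. Capitals mark 18 bases at the place of the tRNA primer binding site, and IAP elements are known to use a phenylalanine tRNA.
chr3:73537455-73537478, plus strand: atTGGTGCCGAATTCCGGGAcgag
chr14:35201923-35201946, minus strand: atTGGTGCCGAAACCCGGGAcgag

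Internal deletions split the members by width. Elements were aligned to a full-length member of median width, chr17:64091621-64098753 on the minus strand (7133 bp), and gaps of at least 100 bp were read. A single recurrent deletion, of bases 1614 to 3510 of that element (1897 bp), was present in 230 members, 229 of them in the class of 4000 to 6500 bp. Another 40 members lacked both bases 969 to 1658 and bases 1670 to 3826, 98 had other gaps, and 308, all over 6500 bp, had none. The junction is shown because it identifies the deleted class. In the full-length member, capitals mark the bases that are deleted, first at the start and then at the end of the deletion, and the third line is the junction in the element at chr3:73537106.
chr17:64097111-64097170, minus strand: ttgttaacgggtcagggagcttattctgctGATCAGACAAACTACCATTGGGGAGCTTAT
chr17:64095214-64095273, minus strand: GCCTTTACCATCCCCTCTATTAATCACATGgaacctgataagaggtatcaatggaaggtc
chr3:73538705-73538764, plus strand: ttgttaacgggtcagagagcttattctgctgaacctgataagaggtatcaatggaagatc
The 20 bases across the junction were identical in 186 of the 230 members, and only 3 versions of them occurred. The longest open reading frame, counted in codons, had a median of 1067 in members with the recurrent deletion and 805 in members without a gap. It reached 1000 codons in 202 of the 230 members with the recurrent deletion, in 23 of the 308 without a gap and in none of the 40 (0) with the paired deletions, whose median was 328 codons.

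**Figure D1:**
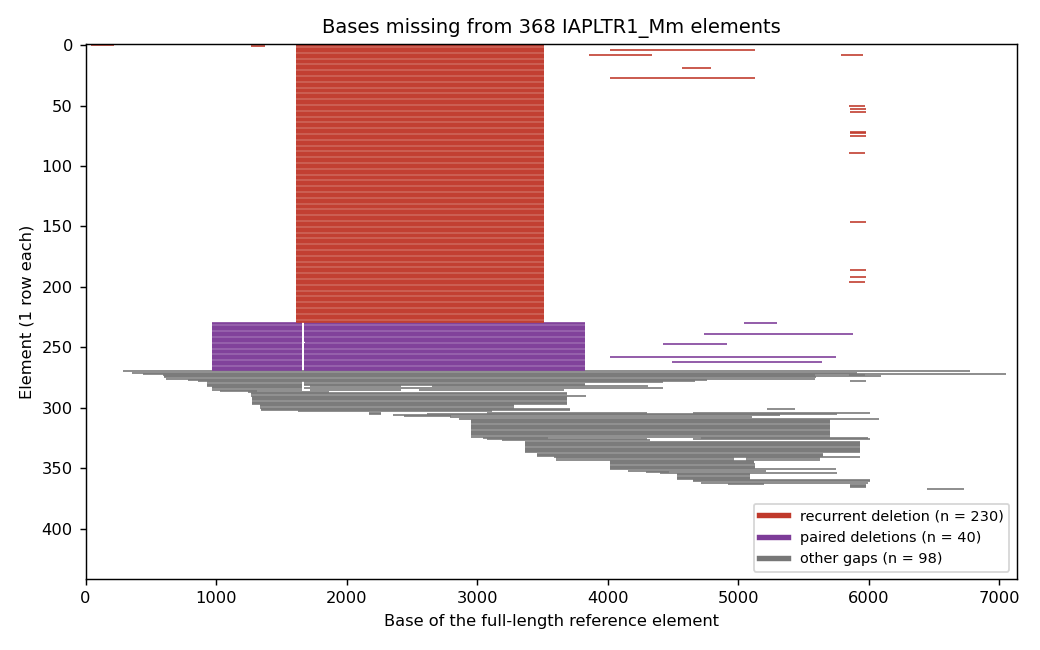
Bases missing from the 368 IAPLTR1_Mm elements that have a gap, with 1 row per element and the base of the 7133 bp reference element on the horizontal axis. The 230 elements with the recurrent deletion share its ends at bases 1614 and 3510, the 40 with paired deletions share 4 ends, and the other 98 have gaps of several kinds.

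The 6 tables of a library together held 19216257 to 33904311 counts, and fold changes were scaled on intervals beside LINE-1 loci, which gave effective sizes of 19481559 and 20118423 in the fibroblast pair and 27051956 and 26054891 in the embryo pair, WT first. Reads over exon 11 of Hells numbered 636 in WT and 0 in Lsh-/- fibroblasts, and 273 in WT and 0 in Lsh-/- embryos. The fibroblast libraries differed in sex chromosome content. Intervals over Xist, which is transcribed from an inactive X chromosome, held 16828 counts in the WT library and 53 in the Lsh-/- one, and LINE loci and their intervals on chromosome Y held 22 and 5899. Sex and genotype cannot be told apart in these fibroblasts, and without chromosomes X and Y the share of members above 5, given below as 83.5%, was 83.3%. Marker genes were read from intervals beside LINE loci that cross their exons. Of 8 fibroblast markers 7 could be read, at 169722 summed counts in the WT and 129980 in the Lsh-/- library. Vim (110360 and 73319), Col1a1 (22126 and 14041), Postn (11555 and 2064) and Col1a2 (241 and 213) were lower in Lsh-/-. Col3a1 (4188 and 9082), Fn1 (19418 and 27930) and Pdgfrb (1834 and 3331) were higher. All marker values here are raw counts without scaling. Total counts were 29787223 in the WT and 19216257 in the Lsh-/- fibroblast library, unlike the effective sizes, which were close. Which markers are lower or higher therefore depends on the library size used. The 3 fetal liver markers (Afp, Alb, Apoa2) summed to 35 and 79, with Alb at 0 in both. The 4 neural markers read summed to 855 and 907, with Stmn2 at 2 and 493 and Tubb3 at 848 and 410. In embryos the fetal liver markers summed to 3220 counts in WT and 382 in Lsh-/-, and the neural markers to 2050 and 1354. Stmn2 (1001 and 535) and Tubb3 (572 and 299) were lower in Lsh-/- embryos, whereas Dcx had 372 and 410 and Elavl4 105 and 110. The part of these differences in the values below was not tested, and in whole embryos fewer cells of a type and less RNA per cell cannot be told apart.

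IAPLTR1_Mm elements were nearly silent in WT fibroblasts and widely transcribed in Lsh-/- fibroblasts. Their counts summed to 603 on 167 members in WT and to 56102 on 657 members in Lsh-/- fibroblasts. After scaling this was a 90.1-fold difference, with an exact 95% interval of 83.1 to 97.8 that covers counting error only. It leaves out the choice of library size. The tables of the WT and Lsh-/- fibroblast libraries held 29787223 and 19216257 counts, and the scaling factors were 0.754 and 1.33. With total counts as library size, the members' median log2 fold change was 7.88 instead of 7.5. The ratio of the sums, which would also be larger, was not recomputed. The median member had 0 counts in the WT and 19.5 in the Lsh-/- library, and the member with the most counts had 55 in WT and 2261 in Lsh-/-.

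Of 663 members listed in fibroblasts, 480 had at least 10 counts in the pair of libraries and were carried into the fold changes. Of these 480, 401 (83.5%, 95% Wilson interval over loci 80.0 to 86.6%) had a log2 fold change above 5, the limit the study draws. Among all 2103 LTR loci carried, 60.3% were above 5. The members' median log2 fold change was 7.50 (7.24 to 7.68), 11 members lay between -1 and 1, and 2 lay below -1. The size of these values rests on a small prior count, because 339 of the 480 members (70.6%) had no read in WT. With a library at 0 set to a floor of 3 counts, the median was 3.73 and 29.8% were above 5. With the prior count 467 of 480 (97.3%) were above 1. The 339 members without a WT read had to be above 1 and above 5, since they were carried on Lsh-/- counts alone.

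In E13.5 embryos the same elements held 932 counts on 217 members in WT and 10558 on 536 members in Lsh-/-. This was an 11.8-fold difference, smaller than that in fibroblasts, and Lsh-/- embryos had fewer member counts than Lsh-/- fibroblasts in a larger library. The median member had 0 counts in the WT and 5 in the Lsh-/- embryo library. Of 558 listed members 253 had at least 10 counts, and 139 of these (54.9%, 48.8 to 61.0%) were above 5, beside 26.5% of all 1795 LTR loci carried. The median log2 fold change was 6.37 (4.74 to 6.50), 21 members lay between -1 and 1, and 6 lay below -1. In WT embryos 124 of the 253 (49.0%) had no read, and these had to be above 5 with the prior count. The median of 6.37 is the value that the prior count gives a member with 0 WT and 10 Lsh-/- counts. At the floor of 3 counts the median was 2.72 and 10.3% were above 5, while 226 members (89.3%) were above 1 with the prior count.

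**Figure D2:**
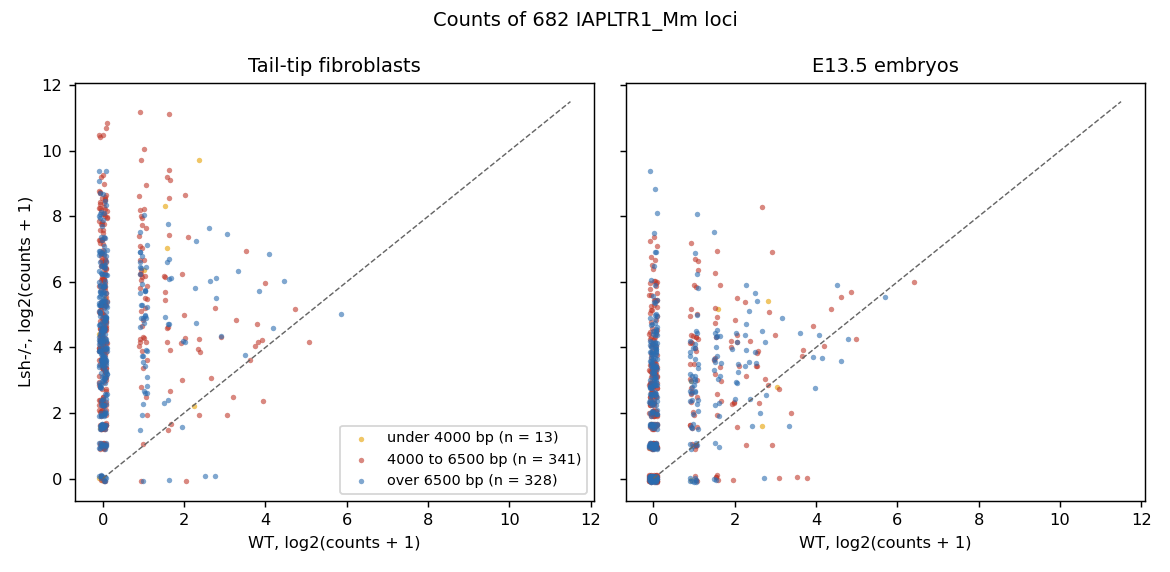
Counts of the 682 IAPLTR1_Mm loci in WT (horizontal) and Lsh-/- (vertical), both as log2(counts + 1) with a small random shift to separate points, in fibroblasts and E13.5 embryos, coloured by width. The dashed line marks equal counts, and most points lie above it, many on the left edge where WT had no read.

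Deleted and full-length elements had shares above 5 with overlapping intervals. In fibroblasts 81.9% (76.6 to 86.2%) of 243 elements of 4000 to 6500 bp and 84.8% (79.6 to 88.9%) of 230 elements over 6500 bp were above 5, with median log2 fold changes of 7.68 and 7.23. In embryos the shares were 55.6% of 124 (46.9 to 64.1%) and 55.6% of 126 (46.8 to 63.9%), with medians of 6.31 and 6.37. With a library at 0 set to the floor of 3 counts, these medians were 3.18 and 2.56. The overlap does not show that the classes act alike, and it rests on the prior count. At the floor of 3 counts the fibroblast shares were 35.8% (30.04 to 42.01%) and 22.6% (17.7 to 28.4%), in the reverse order and with intervals that no longer overlapped. Only 7 elements under 4000 bp were carried in fibroblasts, all above 5, and 3 in embryos, of which 0 were above 5.

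The amount of RNA told the width classes apart in fibroblasts. Elements of 4000 to 6500 bp, 341 of the 682 members, held 317 of 603 counts (52.6%, 48.6 to 56.5%) in WT fibroblasts. In Lsh-/- fibroblasts they held 38968 of 56102 (69.5%, 69.1 to 69.8%). In embryos they held 499 of 932 (53.5%, 50.3 to 56.7%) in WT and 5092 of 10558 (48.2%, 47.3 to 49.2%) in Lsh-/-. The Lsh-/- fibroblast library therefore stood above the other 3 in the share of the deleted class. These intervals cover counting error only, since the spread between cultures or animals was not measured.

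Per length, elements of 4000 to 6500 bp had 22.2 counts per kb in Lsh-/- fibroblasts and elements over 6500 bp had 6.70, against 2.90 and 2.28 in Lsh-/- embryos. In WT the classes had 0.180 and 0.116 counts per kb in fibroblasts and 0.284 and 0.175 in embryos. Only reads with a unique position were counted, and just 1.28% of the 50-base windows of the median member are unique in the genome, a median of 75 windows per element. Per unique 50-base window, the classes had 1.25 and 0.403 counts in Lsh-/- fibroblasts and 0.163 and 0.137 in Lsh-/- embryos. The order was the same on both scales.

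The difference lay in the upper part of the range. The medians over all members of the classes were 23 counts for 4000 to 6500 bp and 18.5 for over 6500 bp in Lsh-/- fibroblasts, whereas the 90th percentiles were 298 and 114. At least 500 counts were held by 15 members of the first class and 3 of the second. The 10 members with the most counts held 26.6% of all member counts in Lsh-/- fibroblasts, and 39 members held as much as the rest together. Without those 10, the share of the 4000 to 6500 bp class was 60.3%. In Lsh-/- embryos the corresponding values were 26.5% and 40 members, and the class share without the 10 was 55.8%. The widest element under 4000 bp (3913 bp) had 0 counts in both fibroblast libraries, the narrowest above it (4154 bp) had 0 and 14, and the elements on either side of 6500 bp (6454 and 6531 bp) had 14 and 17, and 0 and 87, in WT and Lsh-/-.

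Within the class of 4000 to 6500 bp, most counts lay on members with the recurrent deletion. Its 230 carriers are 34.0% of the placed members, and they had 249 WT fibroblast counts (41.4%) and 34057 Lsh-/- fibroblast counts (60.8%, 60.4 to 61.2%). In embryos they held 310 counts (33.5%) in WT and 2993 (28.4%, 27.6 to 29.3%) in Lsh-/-. So their share in Lsh-/- fibroblasts was above their share of loci, and in Lsh-/- embryos below it. Per unique 50-base window, however, carriers had 0.143 counts in Lsh-/- embryos, close to 0.146 over all members and above the 0.122 of members without a gap. Without the 10 members with the most counts in each library, it was 48.5% (48.0 to 49.0%) in Lsh-/- fibroblasts, still above, and 32.9% (31.9 to 34.0%) in Lsh-/- embryos, where the interval came close to their 34.2% of the loci left. All 15 members of 4000 to 6500 bp with at least 500 counts in Lsh-/- fibroblasts carried it, as did 16 of the 20 members with the most counts there and 6 of the 20 with the most in Lsh-/- embryos. The 308 members without a gap held 26.0% of the counts in Lsh-/- fibroblasts and 42.4% in Lsh-/- embryos. The 40 members with the paired deletions, 5.92% of the loci, held 3.66% of the counts in WT and 3.72% in Lsh-/- fibroblasts. They held 11.1% in WT and 8.91% in Lsh-/- embryos, and a single element, in Slc38a6, had 87 of the 103 counts in WT embryos. In fibroblasts 83.9% (77.6 to 88.7%) of 168 carriers of the recurrent deletion and 85.7% (80.4 to 89.8%) of 217 members without a gap were above 5. In embryos these shares were 44.9% (34.3 to 55.9%) of 78 and 57.3% (48.2 to 65.9%) of 117, beside 82.4% (59.0 to 93.8%) of 17 members with the paired deletions. No WT read was found in 37.2% of these 78 carriers and 53.0% of the 117, and at the floor the shares were 8.97% and 8.55%, with medians of 3.25 and 2.56. Of the 17 with the paired deletions 70.6% had no WT read, and at the floor their share was 23.5%, with a median of 3.79. In fibroblasts the floor gave 43.5% of carriers and 21.7% of members without a gap above 5.

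**Figure D3:**
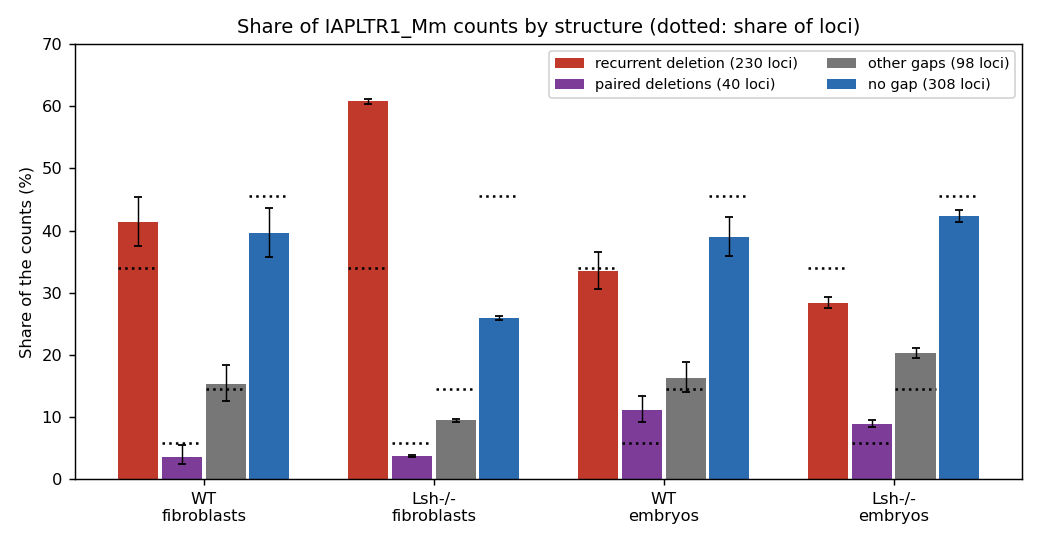
Share of the IAPLTR1_Mm counts (%, bars from 0) held by members of each structure in each library, with 95% Wilson intervals for counting error. Dotted lines give the share of loci. In Lsh-/- fibroblasts the recurrent deletion holds 60.8% of the counts with 34.0% of the loci, and in Lsh-/- embryos 28.4%.

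Carriers of the recurrent deletion had a median of 26 counts in Lsh-/- fibroblasts and a 90th percentile of 377, beside 19 and 113 for members without a gap. In Lsh-/- embryos the medians were 4 and 6 and the 90th percentiles 34 and 24.3. Carriers have fewer unique 50-base windows, with a median of 50 against 92.5. Over members with at least 10 such windows, the median count per window was 0.650 for carriers and 0.238 for members without a gap in Lsh-/- fibroblasts, and 0.0785 and 0.0580 in Lsh-/- embryos. The order of the embryo medians therefore turned on this scale.

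Members with the CRE octamer TGACGTCA in the 5′ LTR, shown in the windows above, held most of the RNA. This split was chosen after the counts had been seen, so it is a description. The 540 members with it had a median of 24 counts in Lsh-/- fibroblasts, against 12 in the 130 without it, and they held 52452 of 55552 counts (94.4%) at 80.6% of the loci. In Lsh-/- embryos the medians were 6 and 3, and members with it held 9279 of 10518 counts (88.2%). In the WT libraries their shares were 61.8% in fibroblasts and 69.7% in embryos, below their share of loci. Without the 10 members with the most counts in each library they were 75.6% (71.0 to 79.7%) and 73.6% (69.8 to 77.0%). Their shares of the loci left were 81.4% and 80.9%. Per unique window over the members left, the WT shares were 85.2% in fibroblasts, above the share of loci, and 73.3% in embryos, below it. All 19 placed members with at least 500 counts in Lsh-/- fibroblasts had the octamer, as did 116 of 119 with at least 100.

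The same order was seen within each width class. Among elements of 4000 to 6500 bp, the median in Lsh-/- fibroblasts was 26 counts with the octamer and 9.5 without it, and among elements over 6500 bp it was 23 and 12.5. In Lsh-/- embryos these medians were 5 and 2.5, and 7 and 2.5. Members without the octamer had a median of 95.5 unique 50-base windows and those with it 71, and within the class of 4000 to 6500 bp these medians were 50 and 59. Per unique 50-base window, members with the octamer had a median of 0.414 counts in Lsh-/- fibroblasts and those without it 0.117, over members with at least 10 such windows. Of 398 members with the octamer carried in fibroblasts 86.4% were above 5, and of 77 without it 67.5%. In embryos these shares were 58.5% of 217 and 32.4% of 34. At the floor they were 33.4% and 9.09% in fibroblasts and 11.52% and 2.94% in embryos, in the same order.

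The 118 members with TGAACGTCA had at most 243 counts in Lsh-/- fibroblasts and 112 in Lsh-/- embryos, with medians of 12.5 and 3. Their LTR pairs were identical in 80.5% of cases, close to the 82.0% of members with TGACGTCA. The only member with TGATGTCA, on chromosome 12, had 456 counts in Lsh-/- fibroblasts and 298 in Lsh-/- embryos, the most of any member without the octamer in either library. CpG content of the 5′ LTR, with a median of 5.43 per 100 bp, was almost unrelated to the counts, with Spearman's rho of 0.07 in Lsh-/- fibroblasts and 0.05 in Lsh-/- embryos across 670 loci of 1 library each.

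**Figure D4:**
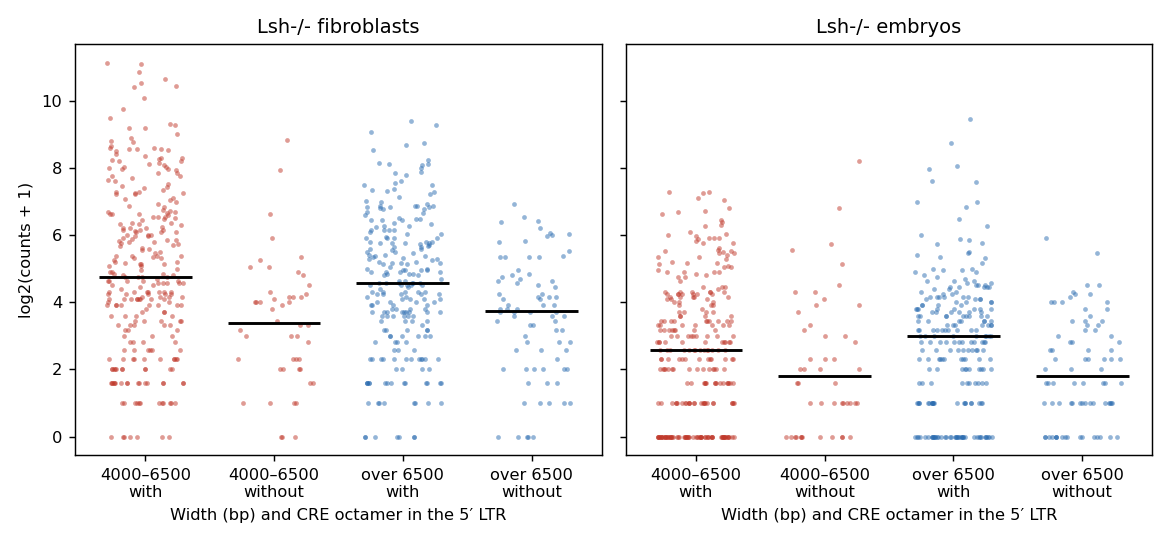
Counts of IAPLTR1_Mm loci in the Lsh-/- libraries, as log2(counts + 1), for members with and without the CRE octamer TGACGTCA in the 5′ LTR, by width class. Points are loci with a random sideways shift and black lines are medians. In both libraries and both classes the median is higher with the octamer, at 26 against 9.5 counts for 4000 to 6500 bp in fibroblasts.

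The 3 members of 4000 to 6500 bp with the most counts among those above 5 in fibroblasts all carried the recurrent deletion and the octamer, and lay outside genes. The element at chr3:73537106-73542360, whose LTR is printed above, had 2 counts in WT against 2261 in Lsh-/- fibroblasts, and 0 and 9 in WT and Lsh-/- embryos. The element at chr8:104528818-104534179 had 1 and 2189 counts in fibroblasts and 1 and 15 in embryos, and it overlaps a listed RLTR20B3 locus, so its reads may be shared. The element at chr7:126556245-126561433, the one of these with the most counts in Lsh-/- embryos, had 0 and 1860 counts in fibroblasts and 0 and 58 in embryos. The last was at least 600.4-fold higher in Lsh-/- fibroblasts, against a floor of 3 counts in the WT library. All 3 were close to silent in WT and far lower in Lsh-/- embryos than in Lsh-/- fibroblasts.

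Full-length elements in fibroblasts were led by chr8:66218248-66225349, with 0 counts in WT and 676 in Lsh-/-, at least 218-fold higher. It had 2 and 10 counts in embryos. The element at chr17:90334895-90342032 had 0 and 620 counts in fibroblasts and 0 and 6 in embryos. The element at chr3:26245780-26253039 had 0 and 536 counts in fibroblasts and 1 and 5 in embryos. These elements have no gap, and the last 2 have a frame of 805 codons, the most frequent longest frame among the members (219 members).

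The short elements were raised as well. The element at chr5:7492598-7494774, of 2177 bp, had 4 counts in WT against 796 in Lsh-/- fibroblasts, a ratio of 193 (75.0 to 709), and 6 and 44 in embryos. The element at chr1:109935380-109937467 had 2 and 310 counts in fibroblasts and 2 and 36 in embryos. The element at chr3:66831865-66834103, in an intron of Rsrc1 on the strand of the gene, had 2 and 134 counts in fibroblasts and 0 and 5 in embryos. Each of them has identical LTRs with the octamer, although its longest frame is at most 101 codons.

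In embryos the members with the most counts were others. The element at chr15:72911842-72918382, of 6541 bp and 2440 bp from Chrac1, had 0 counts in WT and 704 in Lsh-/- embryos, at least 244-fold higher, and 1 and 35 in fibroblasts. The full-length element at chr11:74033195-74040244 had 0 and 428 counts in embryos and 0 and 116 in fibroblasts. The full-length element at chr14:43354323-43361514 had 0 and 268 counts in embryos and 0 and 59 in fibroblasts. All of them were higher in Lsh-/- embryos than in Lsh-/- fibroblasts.

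Of the elements of 4000 to 6500 bp in embryos, the first by counts was chr12:109317502-109322631, the member with TGATGTCA. It carries the recurrent deletion and had 5 counts in WT against 298 in Lsh-/- embryos, a ratio of 61.9 (26.2 to 192), and 0 and 456 in fibroblasts. The element at chr8:127102276-127107035, with the paired deletions and antisense in an intron of Capn9, had 0 and 157 counts in embryos and 1 and 17 in fibroblasts. The element at chr7:25363185-25369149, over an exon of Zfp575 in sense, had 0 and 154 counts in embryos and 0 and 23 in fibroblasts. Here again WT libraries had 5 counts or fewer.

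A few members were high in Lsh-/- libraries of both tissues. Taking the smaller of the 2 scaled Lsh-/- counts, the leading members were those on chromosomes 12 and 11 just given and 2 full-length elements with the octamer. The element at chr2:174809511-174816619 had 0 and 371 counts in WT and Lsh-/- fibroblasts and 1 and 253 in embryos. The element at chr17:65504061-65511133 had 0 and 410 counts in fibroblasts and 0 and 191 in embryos. Apart from these, the members with the most counts mostly differed between the tissues. Among 682 members, the 20 with the most counts in Lsh-/- fibroblasts and the 20 in Lsh-/- embryos shared 1 (5% of each list). The same overlap was not computed for all LTR loci, so it is not given as a trait of these members.

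**Figure D5:**
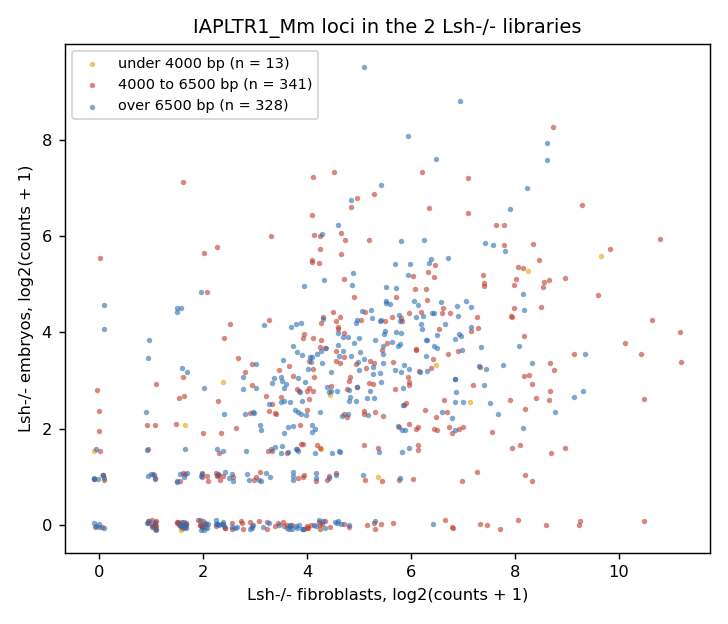
Counts of the 682 IAPLTR1_Mm loci in Lsh-/- fibroblasts (horizontal) and Lsh-/- embryos (vertical), as log2(counts + 1) with a small random shift, coloured by width. Spearman's rho was 0.52 over the loci, and the loci with the most counts in fibroblasts, at 2261 and 2189, had 9 and 15 in embryos.

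Across the 682 members, counts in the Lsh-/- libraries had a Spearman's rho of 0.52. The loci share their number of unique positions, which itself had a rho of 0.53 with the counts in Lsh-/- fibroblasts and 0.51 in Lsh-/- embryos over 676 loci. Width had almost none, at -0.03 and 0.00. Of 236 members carried in both tissues, 108 were above 5 in both, 75 only in fibroblasts, 17 only in embryos and 36 in neither. Another 244 were carried only in fibroblasts and 17 only in embryos. Among all carried members, 70.6% in fibroblasts and 49.0% in embryos had no WT read, and each of these had to be above 5. The split between the tissues therefore depends on where WT reads occurred. It was not computed at the floor or for all LTR loci.

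A small number of members were not raised. Of the 11 between -1 and 1 in fibroblasts, 5 lacked the octamer, 4 lay in introns and 4 over exons. Among members carried in fibroblasts, 77 lacked the octamer and 398 had it, while 115 lay in introns, 15 over exons and 347 outside genes. Only members with WT reads could lie between -1 and 1, so the 11 were selected on WT counts. No WT read was found in 40.0% of the carried members over exons and 76.7% of those outside genes. The element with the most counts among the 11 was chr8:23661640-23668765, in sense in an intron of Slc20a2, a phosphate transporter gene. It had 55 counts in WT against 31 in Lsh-/- fibroblasts, a ratio of 0.546 (0.340 to 0.863), and 17 and 21 in embryos. The element at chr11:105889560-105894874, over an exon of the potassium channel gene Kcnh6 in antisense, had 26 and 37 counts in fibroblasts and 7 and 112 in embryos. The element at chr7:144606702-144611964, outside genes, had 31 and 17 counts in fibroblasts and 5 and 14 in embryos. The elements on chromosomes 11 and 7 carry the recurrent deletion and have TGAACGTCA.

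Only 2 members were below -1 in fibroblasts. The element at chr4:78158065-78163258, with TGAACGTCA, had 15 counts in WT against 4 in Lsh-/- fibroblasts, a ratio of 0.258 (0.0624 to 0.811), and 0 and 1 in embryos. The element at chr8:74752128-74756849 had 7 and 3 counts in fibroblasts, a ratio of 0.415 whose interval of 0.0692 to 1.82 includes equality, and 0 and 46 in embryos.

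In embryos, chr12:74411980-74416847, over an exon of the amino acid transporter gene Slc38a6 in antisense, had 87 counts in WT and 60 in Lsh-/-, and 4 and 18 in fibroblasts. The element at chr15:90466899-90474052, over an exon of Cpne8 in sense, had 50 and 43 counts in embryos and 21 and 65 in fibroblasts. The element at chr6:71905421-71910754, antisense in an intron of Polr1a, which encodes the largest subunit of RNA polymerase I, had 30 and 48 counts in embryos and 12 and 25 in fibroblasts. Below -1 were chr13:112484443-112491030, antisense in an intron of Mier3, with 24 and 11 counts in embryos, and chr13:56814242-56821338, antisense in an intron of Smad5, a transcription factor gene of BMP signalling, with 14 and 6. Both ratios, 0.476 (0.210 to 1.01) and 0.445 (0.140 to 1.23), had intervals that included equality. In fibroblasts these elements had 3 and 16, and 2 and 29, counts.

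Of the 676 placed members 494 lay outside genes of GENCODE vM1, 162 in introns and 20 over exons. Inside genes 128 of 182 (70.3%, 63.3 to 76.5%) were antisense to the gene. In fibroblasts 88.5% of 347 members outside genes, 72.2% of 115 in introns and 53.3% of 15 over exons were above 5. In embryos the shares were 62.6% of 163, 45.8% of 72 and 18.8% of 16. In fibroblasts 76.7% of the members outside genes and 56.5% of those in introns had no WT read. At the floor their shares were 30.6% and 28.7%, and the medians of 3.73 and 4.04 stood in the reverse order. Counts per locus in WT followed the opposite order, and members over exons held 90 of the WT fibroblast counts and 245 of the WT embryo counts with only 20 loci. Whether these reads came from transcripts of the genes was not tested.

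The flanks measure transcription away from the element, in intervals 10 to 11 kb on either side, where upstream means the side of lower coordinates whatever the strand. In fibroblasts 22 of 67 upstream intervals with at least 10 counts (32.8%, 22.8 to 44.7%) were above 5, beside 13.4% of upstream intervals of all LTR loci. Downstream it was 20 of 77 (26.0%, 17.5 to 36.7%), beside 12.0%. All of these had 0 counts in WT, with medians of 21 upstream and 26 downstream in Lsh-/- fibroblasts. Another listed LTR locus overlapped 2 of the upstream intervals, 1 of them a member, and 0 of the downstream ones. With the WT library at the floor of 3 counts, 2.99% upstream and 3.90% downstream were above 5.

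The embryo pair had 4 of 61 intervals above 5 on the upstream side (6.56%, 2.58 to 15.7%) and 3 of 78 on the downstream side (3.85%, 1.32 to 10.7%), beside 3.80% and 3.20% of the intervals of all LTR loci. Their median log2 fold changes were 0.05 and 0.04. Most intervals had no read. Beside the 401 members above 5 in fibroblasts, 75.3% of upstream and 74.6% of downstream intervals had no read in either fibroblast library. These members themselves had 88 WT and 52936 Lsh-/- fibroblast counts, while their upstream intervals had 2263 and 3793 and their downstream intervals 6870 and 9375. Of the intervals beside them with at least 10 counts, 20 of 37 upstream and 17 of 33 downstream were above 5, with a median log2 fold change of 6.32 on either side. That median is the value that the prior count gives an interval with 0 WT and 10 Lsh-/- counts, so it does not measure a size. Between -1 and 1 lay 13 upstream and 14 downstream.

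Of the IAP groups most like it, IAPLTR1a_Mm had 806 listed loci and names that begin with IAPLTR2 had 752. In fibroblasts 83.0% (79.6 to 86.0%) of 524 IAPLTR1a_Mm loci were above 5, and the interval overlapped that of IAPLTR1_Mm, although at the floor the share was 17.9% beside 29.8%. It was 70.9% (64.8 to 76.4%) of 234 IAPLTR2 loci. In embryos the shares were 53.9% (48.1 to 59.7%) of 280 and 39.2% (31.1 to 48.0%) of 125. Scaled ratios of the summed counts were 92.5 and 13.8 in fibroblasts and 11.6 and 2.65 in embryos. Summed counts in Lsh-/- fibroblasts were 30662 for IAPLTR1a_Mm and 13653 for IAPLTR2, against 56102 for IAPLTR1_Mm with fewer loci. The IAPLTR1_Mm elements also had fewer unique 50-base windows, with a median of 75 beside 137 and 427. Their LTR pairs were identical more often, at 81.3% beside 56.1% and 13.2%, and TGACGTCA was in more of their 5′ LTRs, at 80.6% beside 65.1% and 5.51%.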

How the data were processed

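Total RNA of 4 samples was made into paired-end, strand-specific mRNA-seq libraries, 1 per group. The authors aligned reads to mm9 using TopHat 1.4.0 without mismatches, retained those with a unique position and assigned them to repeatmasker loci. They used edgeR for their own comparisons. Each library has 6 tables, in which the authors deposited raw read counts of loci and of intervals beside them. Whether a pair counted once is not given in the sources used here. Unlisted loci were taken as 0. Unique mapping without mismatches leaves few countable positions in young elements, so counts understate them.

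Library sizes came from TMM in edgeR 4.0.16 (R 4.3.3) on intervals beside LINE-1 loci, with edgeR's prior count of 0.125 and at least 10 counts per pair. With 1 library per group no test was made. Intervals (95%) are Wilson for shares, from order statistics over loci for medians, and exact binomial (Clopper-Pearson) for ratios, the last covering counting error only. Starts in the files count from 0 and are given from 1. Sequences were read from NCBIM37 with pysam 0.24.0, LTR pairs aligned with Biopython 1.88, deletions with minimap2 2.31, and unique windows of 50 and 100 bases counted over the genome. Python 3.11.15, NumPy 2.4.6, SciPy 1.17.1, pandas 2.3.3 and matplotlib 3.10.9 were used. The fold changes were tested on simulated data at loci with at least 50 counts, and the deletion caller on simulated deletions. Loci with fewer counts, which were also carried, were not covered by that test.

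Named loci are, per tissue and width class, the 3 with the most counts above 5, per tissue the 3 with the most between -1 and 1 and the 2 below -1, and the 4 with the largest smaller Lsh-/- level. The member with TGATGTCA was also singled out after its values were seen. Members, lists and splits were chosen with earlier results of these data known. Alternatives were a prior count of 1, the floor of 3 counts, DESeq2 1.42.0 size factors, total counts, all listed loci, 50 counts, no chromosomes X and Y, a limit of 1, no overlapping loci and other width limits. Shares of counts without the 10 highest loci and per unique window were added after the data were seen. A marker list and the gene nearest to 1 element are not reported here.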

Additional observations from a re-analysis of the deposited data

Results flagged for a closer look

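Of the 236 members carried in both tissues, 2 moved in opposite directions with the counting intervals of both ratios apart from equality, and the difference between the tissues was not tested. The element on chromosome 3 from 51043890, over an exon of Ccrn4l in sense, had 0 counts in WT and 14 in Lsh-/- fibroblasts (log2 fold change 6.80), whereas in embryos it had 11 and 0 (log2 fold change -6.45). The element on chromosome 5 from 48357407 had 0 and 19 counts in fibroblasts (7.23) and 12 and 0 in embryos (-6.57). The first has no window of 50 bases that is unique in the genome (0), and the second has 73. The size of these fold changes rests on the prior count, since a library of each pair held 0. The intervals of the ratios began at 3.21 and 4.52 in fibroblasts and ended at 0.414 and 0.374 in embryos.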

How the results depend on the processing

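With 1 library per group no replicate could be left out and no spread was measured, and counts of young elements are limited by their few unique positions. No paired analysis was possible because each group had 1 library and no test was made. Of 144 values under alternatives, 80 stayed within the interval of the reported value and 64 moved. Values are given in the order all members, 4000 to 6500 bp, over 6500 bp, as the share above 5. With a prior count of 1 they were 47.7%, 52.7% and 41.7% in fibroblasts and 20.9%, 27.4% and 15.1% in embryos. At the floor of 3 counts they were 29.8%, 35.8% and 22.6%, and 10.3%, 12.1% and 8.73%. Over all listed loci they were 71.0%, 70.3% and 72.1%, and 43.2%, 43.9% and 43.6%. With at least 50 counts they were 92.1%, 95.9% and 86.7% in fibroblasts, and 76.0%, 77.4% and 77.8% in embryos. With a limit of 1 they were 97.3%, 95.9% and 98.7%, and 89.3%, 87.1% and 92.1%. With total counts as library size they were 86.9% for all members and 89.1% over 6500 bp in fibroblasts. So the share above 5 depends on the prior count, while the order of the width classes in fibroblasts turned with the prior count of 1, the floor and at least 50 counts. Elements under 4000 bp had 57.1% at the floor and 63.6% over all listed loci in fibroblasts, and 66.7% with a limit of 1 in embryos.

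The median log2 fold change was 4.88 in fibroblasts and 3.67 in embryos with a prior count of 1, 3.73 and 2.72 at the floor, 6.58 and 4.11 over all listed loci, and 9.25 and 7.50 with at least 50 counts. With total counts it was 7.88 in fibroblasts. For flanking intervals in fibroblasts, the shares upstream and downstream were 8.96% and 11.7% with a prior count of 1, 2.99% and 3.90% at the floor, and 14.8% and 11.4% with at least 50 counts, and 40.3% downstream with a limit of 1. In embryos they were 1.64% and 1.28% both with a prior count of 1 and at the floor, and 16.7% downstream with a limit of 1.

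The share of counts on elements of 4000 to 6500 bp was 70.1% without chromosomes X and Y, 60.3% without the 10 members with most counts and 73.5% per unique window in Lsh-/- fibroblasts, and 55.8% and 52.4% under the latter settings in Lsh-/- embryos. The share on members with TGACGTCA was 94.2%, 92.4% and 95.2% in Lsh-/- fibroblasts and 90.1% per unique window in Lsh-/- embryos. These settings were chosen after seeing the data. DESeq2 size factors, other width limits and leaving out overlapping loci moved none of the values computed under them. The DESeq2 sizes were equal within each pair, so that setting made no adjustment between its libraries.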
